A study of Mus musculus with 75 samples.

Results

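The mRNA levels of 9 transcription factor genes that define the adult hepatocyte were followed in mouse liver: Hnf4a, Foxa1, Foxa2, Foxa3, Cebpa, Cebpb, Onecut1, Prox1 and Nr5a2. They were taken by gene symbol from a known list of liver transcription factors, with earlier results of these data known. All 9 were found among the 55536 genes of the count table and passed the filter on low counts in every comparison. The study sequenced RNA from the livers of male wild-type C57Bl/6 mice whose dams drank either vehicle or the organotin compound tributyltin (TBT) until weaning, at a daily dose of 0.5 mg per kg that the labels also give as 3.07 µM. At 3 weeks of age there were 8 libraries from vehicle offspring, 2 of them from 1 mouse, and 8 from TBT offspring. The 5-month set held 8 libraries from vehicle mice, 16 from TBT mice of the low-risk group and 10 from the high-risk group. The 10-month set held livers of 6 vehicle and 5 low-risk TBT mice, 6 libraries of uninvolved liver from high-risk TBT mice, and 7 tumors from TBT mice. A single library of a 10-month vehicle liver that the labels mark as a tumor entered no comparison. Exposure ended at weaning, so the older livers were taken after exposure had stopped. How the risk group of a 5-month mouse was decided is not stated in the labels, so the high-risk and low-risk groups are used here only as labelled.

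The hepatocyte is maintained by a small network of DNA-binding proteins that bind many of the same enhancers and promoters and also bind each other's genes. HNF4A is an orphan nuclear receptor needed for most secreted and metabolic functions of the cell; FOXA1, FOXA2 and FOXA3 are forkhead proteins that open chromatin at liver genes; CEBPA and CEBPB are leucine-zipper proteins, the first associated with the quiescent, metabolically active hepatocyte and the second with the acute phase response and regeneration. ONECUT1 (HNF6) acts in both hepatocyte and bile duct development, PROX1 is a homeodomain protein and corepressor of nuclear receptors that also marks lymphatic endothelium, and NR5A2 (LRH-1) is a nuclear receptor that drives bile acid and cholesterol genes. Loss of such factors, CEBPA and HNF4A among them, is a known feature of dedifferentiated liver tumors.

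The stretches just upstream of the RefSeq starts (build GRCm38.p6, 250 bases, written on the strand of the gene, 5′ to 3′) are shown for the 3 genes that were lower in high-risk liver than in both low-risk and vehicle liver at 5 months. Capitals mark a match to TATAAA, or, in Foxa2, to TTGATT, the core of ONECUT binding sites. The Cebpa window is chr7:35119043-35119292 on the plus strand, the Foxa2 window, at the most upstream of its starts, chr2:148046970-148047219 on the minus strand, and the Nr5a2 window, also at its most upstream start, chr1:136960449-136960698 on the minus strand.

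Cebpa: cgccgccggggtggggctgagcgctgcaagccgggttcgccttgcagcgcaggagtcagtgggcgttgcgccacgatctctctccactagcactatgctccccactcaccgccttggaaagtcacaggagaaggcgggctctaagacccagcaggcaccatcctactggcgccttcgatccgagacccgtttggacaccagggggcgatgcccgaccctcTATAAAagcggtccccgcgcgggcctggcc

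Foxa2: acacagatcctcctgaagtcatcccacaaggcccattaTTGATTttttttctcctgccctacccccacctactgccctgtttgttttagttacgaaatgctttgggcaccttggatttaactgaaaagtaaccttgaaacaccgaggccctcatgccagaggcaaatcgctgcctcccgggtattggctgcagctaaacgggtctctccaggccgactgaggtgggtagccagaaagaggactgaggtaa

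Nr5a2: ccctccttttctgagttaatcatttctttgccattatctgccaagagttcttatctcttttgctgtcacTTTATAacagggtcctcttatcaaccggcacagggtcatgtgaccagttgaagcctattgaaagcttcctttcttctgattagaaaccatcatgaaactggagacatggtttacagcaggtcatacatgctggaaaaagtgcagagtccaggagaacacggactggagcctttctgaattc

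The Cebpa match to TATAAA lies 30 to 25 bases before the start, on the strand of the gene. In Nr5a2 the match lies 181 to 176 bases before the start and on the opposite strand, so that it reads TTTATA. The Foxa2 match to TTGATT lies 212 to 207 bases before the start. Counting both strands, TATAAA was found in 12.37% of 32851 RefSeq windows of this length and in 5 of the 14 windows of these 9 genes (1 each of Cebpa, Foxa2, Foxa3, Nr5a2 and Prox1), and TTGATT in 10.67% of all windows and in 2 of the 14 (Foxa2 and Hnf4a). The forkhead letters TGTTTAC were found in 3.17% of all windows and once here, upstream of Foxa1. The C/EBP palindrome TTGCNNCAA (1.74% of all windows), the nuclear receptor letters CAAAGTCCA (0.384%) and CAAGGNCA (5.53%) had no match in the 14 windows. These matches describe letters only.

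Depth ran from 2831666 counts in the shallowest library to about 45.4 M in the deepest. Of the 75 libraries, 6 stood apart by technical measures: fewer than 5 M counts, more than 35000 genes with a count, or a mitochondrial share above 10%. They include high-risk livers 10 and 15 and low-risk liver 16 of 5 months, vehicle liver 9 of 5 months and 1 of the 2 libraries of vehicle mouse 3 of 3 weeks. The library labelled TBT 4 of 3 weeks carried 348 Xist and 7.08 Y-linked counts per M counts, which goes against its male label; no gene of the 9 was called at 3 weeks with or without it. Low-risk liver 24 of 5 months had 84.6 Xist counts per M beside 237 Y-linked ones, while the libraries other than these had at most 8.39 Xist counts per M. In a fit without it, chosen after seeing the data, the same genes were called at 5 months (5 against low-risk and 3 against vehicle liver, Foxa3 against low-risk liver at an adjusted p = 0.0492). Uninvolved livers 3, 6 and 12 of 10 months had 102, 101 and 93.95 Y-linked counts per M, with Xist at most 0.822. Uninvolved livers 1, 5 and 7 had 206, 204 and 194 Y-linked counts per M. The part of this split in the levels was not tested. Uninvolved livers 3 and 6 of 10 months differed by little more than sampling (a median chi-square per gene of 0.556, against 0.455 from sampling alone and at least 1.25 in 309 other pairs of one group), so they were summed and counted as 1 sample. The 2 libraries of vehicle mouse 3 were summed because they carry 1 mouse number. They were not alike, with a median chi-square of 5.33. With them kept as separate samples, 0 genes were called at 3 weeks. Summing left 72 samples in the groups. The labels do not say whether mice share a litter or dam, and a p-value measures only the spread between these samples. In bulk RNA, fewer hepatocytes and less RNA per hepatocyte cannot be told apart.

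The lists of defining hepatocyte genes fitted the label of the tissue: their 8 genes (Alb, Apoa1, Ttr, Serpina1a, Cyp3a11, Tat, Asgr1 and Hpx) summed to medians between 85610 and 163300 CPM (counts per M counts) in the 9 groups, and none was at 0 throughout a group. Levels below are CPM scaled by TMM, edgeR's correction for library composition, and per-kilobase levels divide CPM by the exon length of the gene so that genes can be compared with each other.

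On the length-scaled scale, Hnf4a and Cebpa were the most abundant of the 9 mRNAs. Hnf4a (chr2:163506808-163572910, 13 exon blocks) had a median of 134 CPM per kb over the 72 samples, and Cebpa (chr7:35119293-35121928, a single exon) 111. Foxa3 followed at 29.7 CPM per kb, then Cebpb at 21.4, Prox1 at 16.4, Nr5a2 at 14.7, Foxa2 at 10.9, Foxa1 at 3.09 and Onecut1 at 2.67. Hnf4a kept a narrow band of group means, 121 to 154 CPM per kb. Its single samples spread more widely, from 310 to 1292 CPM (not per kb) in vehicle liver of 5 months. Cebpa spanned 68.4 in high-risk liver of 5 months to 155 in low-risk liver of 10 months, so that Cebpa stood above Hnf4a by group mean only in the vehicle and low-risk livers of 10 months.

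**Figure D1:**
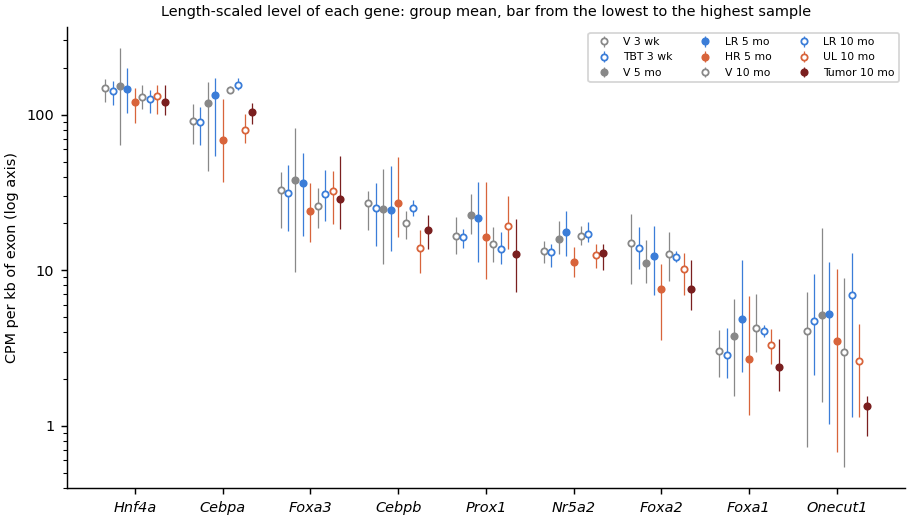
Length-scaled mRNA level (CPM per kb of exon, log axis) of the 9 genes, ordered by median; each point is a group mean and each bar runs from the lowest to the highest sample, with the 9 groups from left to right in the order of the legend, down its columns (V vehicle, LR low-risk TBT, HR high-risk TBT, UL uninvolved liver of high-risk mice). Hnf4a group means lie between 121 and 154, while those of Cebpa run from 68.4 to 155.

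Among the forkhead genes, Foxa3 made up most of the summed length-scaled FOXA mRNA, with a median share of 60.5% to 74.6% in the 9 groups. Foxa2 contributed medians of 18.8% to 29.6% and Foxa1 5.61% to 9.88%. The Foxa1 share was lowest in tumors and highest in 10-month vehicle liver, and the Foxa3 share was the reverse.

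Ordering the 9 groups by mean CPM for each gene gave 72 steps between neighbours, and in 70 of them the gap was no larger than the larger SD of the neighbouring groups. The exceptions were Cebpb between tumor (27.1 ± 4.23 CPM, SD, n = 7) and uninvolved liver (20.9 ± 5.14, n = 5), and Nr5a2 between vehicle liver of 5 months (93.7 ± 14.1, n = 8) and of 3 weeks (77.9 ± 10.6, n = 7). The largest spread within groups was that of Onecut1, whose lowest and highest samples in 5-month vehicle liver were 5.87 and 76.8 CPM, with a median of 9.05.

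**Figure D2:**
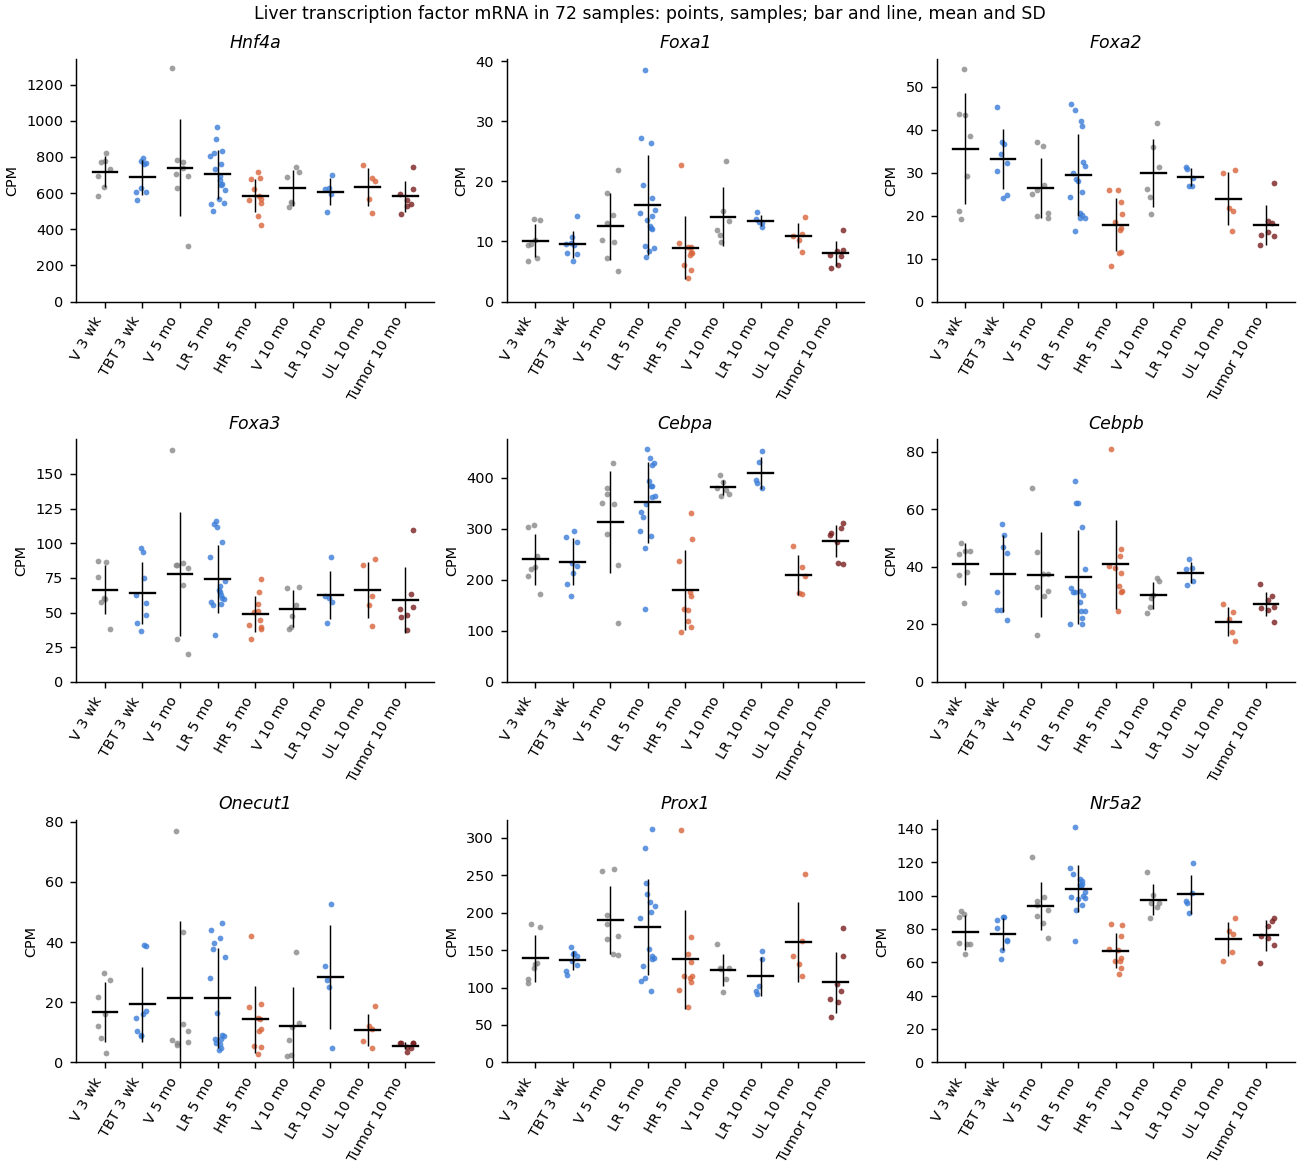
CPM of each gene (linear axis from 0) in the 72 samples of the 9 groups; each point is a sample, the horizontal bar the group mean and the vertical line 1 SD either side of it, stopped at 0. High-risk livers of 5 months and uninvolved livers of 10 months sit low for Cebpa and Nr5a2 beside vehicle and low-risk livers of their age, and the Hnf4a points of all groups overlap. Nr5a2 means are about as low in tumors (76.1) and in vehicle and TBT livers of 3 weeks (77.9 and 77.0) as in uninvolved liver (73.8). Cebpa means at 3 weeks (240 and 236) are also near that of uninvolved liver (209).

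Whether maternal TBT had altered these genes by weaning was asked at 3 weeks. None of the 9 was called, where a call is an adjusted p under 0.05 (edgeR quasi-likelihood test, Benjamini-Hochberg over all genes tested), and 0% of the 14050 genes tested were called in either direction. At an unadjusted p under 0.05 there were 474 genes and 0 of the 9; DESeq2 called 2 genes, neither of them among the 9. Hnf4a ranged from 582 to 820 CPM, median 733, in 7 vehicle livers and from 559 to 796, median 693, in 8 TBT livers. Cebpa ranged from 171 to 308, median 224, and from 169 to 296, median 230. The groups overlapped almost fully, and the log2 fold changes of the 9 genes lay between -0.13 (Cebpb, SE 0.20) and 0.18 (Onecut1, SE 0.46).

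At 5 months the question was how livers labelled high-risk differ from livers labelled low-risk, both from TBT-exposed mice. Cebpa, Nr5a2 and all 3 FOXA genes were lower in high-risk liver, whereas Hnf4a, Cebpb, Onecut1 and Prox1 were not called. Thus 5 of 9 were called lower and 0 higher; of the 14773 genes tested, 18.5% were lower and 20.3% higher. The median log2 fold change of the 9 was -0.60, against -0.01 over all genes tested.

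Cebpa had the largest log2 difference of the 9 in this comparison. Its level in 10 high-risk livers was 97.1 CPM at the lowest, 156 at the median and 331 at the highest, against 144, 363 and 457 in 16 low-risk livers. All 10 high-risk livers were below the low-risk mean and 4 were below every low-risk liver, although the ranges overlapped. The log2 fold change was -0.95 (SE 0.19, adjusted p = 0.000122), so that the fitted level fell by 48.4%. Cebpb, its relative of the acute phase and regeneration, was not called: 24.6, 38.6 and 80.9 CPM in high-risk liver against 20.01, 31.2 and 69.9 in low-risk liver (log2 fold change 0.20, SE 0.21, adjusted p = 0.481). A single antisense gene, Tmem189, shares 312 bases of exon with Cebpb, and whether the counting used strand is not given in the sources used here, so reads of the pair cannot be told apart there. The level of Tmem189 was at most 15.7 CPM.

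Nr5a2 (chr1:136842571-136960448), the bile acid regulator, separated the groups best. High-risk livers ran from 53.2 through a median of 64.9 to 83.0 CPM, and low-risk livers from 73.0 through 104 to 141. Below the lowest low-risk liver lay 7 of the 10 high-risk livers. Its log2 fold change of -0.61 carried an SE of 0.09 (adjusted p = 1.25e-06).

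The 3 forkhead genes were each lower. Foxa2 (chr2:148042877-148046969) ran from 8.38 through 17.8 to 25.9 CPM in high-risk and from 16.4 through 28.3 to 45.9 in low-risk liver (log2 fold change -0.71, SE 0.17, adjusted p = 0.00118). All 10 high-risk livers were below the low-risk mean for Foxa2. Foxa1 (chr12:57540628-57546916) ran from 3.90 through 8.13 to 22.8 against 7.42 through 13.8 to 38.6 CPM (log2 fold change -0.83, SE 0.28, adjusted p = 0.0159); 9 of the 10 were below the low-risk mean. Foxa3 (chr7:19013284-19023538) ran from 30.8 through 47.7 to 73.9 against 33.9 through 65.8 to 116 CPM (log2 fold change -0.59, SE 0.22, adjusted p = 0.0291). Summed per kb, the 3 genes had a median of 34.2 in high-risk, 53.4 in low-risk and 52.8 in vehicle liver.

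Hnf4a was not called, at 426, 575 and 718 CPM (lowest, median, highest) in high-risk against 498, 683 and 968 in low-risk liver (log2 fold change -0.25, SE 0.14, adjusted p = 0.146). For Hnf4a, 9 of the 10 high-risk livers were below the low-risk mean and all 10 below the vehicle mean. Prox1 (chr1:190118035-190170714) stood at 74.1, 115 and 311 against 95.1, 172 and 312 CPM (log2 fold change -0.39, SE 0.19, adjusted p = 0.112). Onecut1 (chr9:74861921-74891781) was too variable to place, with a log2 fold change of -0.60 and an SE of 0.52. High-risk liver 15, at 14.5% mitochondrial counts, had the highest value of the group for Foxa1, Cebpb, Onecut1 and Prox1 and the lowest for Cebpa and Foxa2. Without the technically deviating libraries, Prox1 was also called lower (log2 fold change -0.48, adjusted p = 0.0323) and the other 5 calls held.

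Both sequencing batches held both risk groups. In batch 2, with 7 high-risk and 10 low-risk livers, 6 of the 9 were called lower, the 5 above and Prox1. Of the 13859 genes tested there, 1951 were lower and 2521 higher. In batch 1, with 3 high-risk and 6 low-risk livers, none was called (0 of 9, edgeR), and 773 of 16465 genes were called there. The within-batch log2 fold changes of Cebpa were alike, -0.90 in batch 1 and -0.97 in batch 2, and so were those of Nr5a2, -0.53 and -0.65. For Foxa1 they were -0.28 and -1.14, for Foxa2 -0.44 and -0.84, and for Foxa3 -0.38 and -0.69; in batch 1 their adjusted p values were between 0.462 and 0.813. For Prox1 they were 0.07 and -0.62.

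Against vehicle liver of the same age, 3 of the 9 were lower in high-risk liver: Cebpa, Foxa2 and Nr5a2. Of all genes tested 7.38% were lower and 8.47% higher. This comparison shares its high-risk livers with the previous one. Cebpa in 8 vehicle livers was 115 CPM at the lowest, 349 at the median and 430 at the highest (log2 fold change -0.77, SE 0.23, adjusted p = 0.020). Foxa2 in vehicle liver ran from 19.5 through 25.4 to 37.2 CPM, and 6 of 10 high-risk livers were below all of it (log2 fold change -0.73, SE 0.22, adjusted p = 0.0206). Nr5a2 in vehicle liver ran from 74.8 through 93.0 to 123 CPM, and 7 of 10 high-risk livers were below all of it (log2 fold change -0.39, SE 0.11, adjusted p = 0.0127). Foxa3 had a log2 fold change of -0.56 (adjusted p = 0.176), Hnf4a of -0.27 (0.305), Foxa1 of -0.29 (0.593), Prox1 of -0.29 (0.436), Onecut1 of -0.33 (0.765) and Cebpb of 0.38 (0.382). These 3 calls were less firm than those against low-risk liver: 0 of 9 were called in batch 1 alone, where 7 of the 8 vehicle livers lie, or with the low-risk livers left out of the fit. Leaving out vehicle liver 8, the only vehicle of batch 2, ended the calls of Cebpa (adjusted p = 0.0858) and Nr5a2 (0.0624), leaving out vehicle liver 2 ended that of Foxa2 (0.0509), and Foxa2 was also lost without the deviating libraries (log2 fold change -0.54, adjusted p = 0.0774). Without vehicle liver 9, the shallowest library, Foxa3 was called as well (-0.68, 0.0473).

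Low-risk liver was compared with vehicle liver to ask whether exposure alone, without the high-risk label, went with a change. None of the 9 was called at 5 months, where 0% of 14773 genes were called (934 at an unadjusted p under 0.05, among them Nr5a2, log2 fold change 0.22, SE 0.10; DESeq2 called 52 genes and none of the 9). None was called at 10 months either, where 0% of 16338 genes were called (688 at an unadjusted p under 0.05, among them Cebpb, log2 fold change 0.34, SE 0.14; DESeq2 called 1 gene, not of the 9). At 10 months Cebpa was 380, 390, 395, 431 and 453 CPM in the 5 low-risk livers and ran from 365 through 378 to 405 in the 6 vehicle livers.

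**Figure D3:**
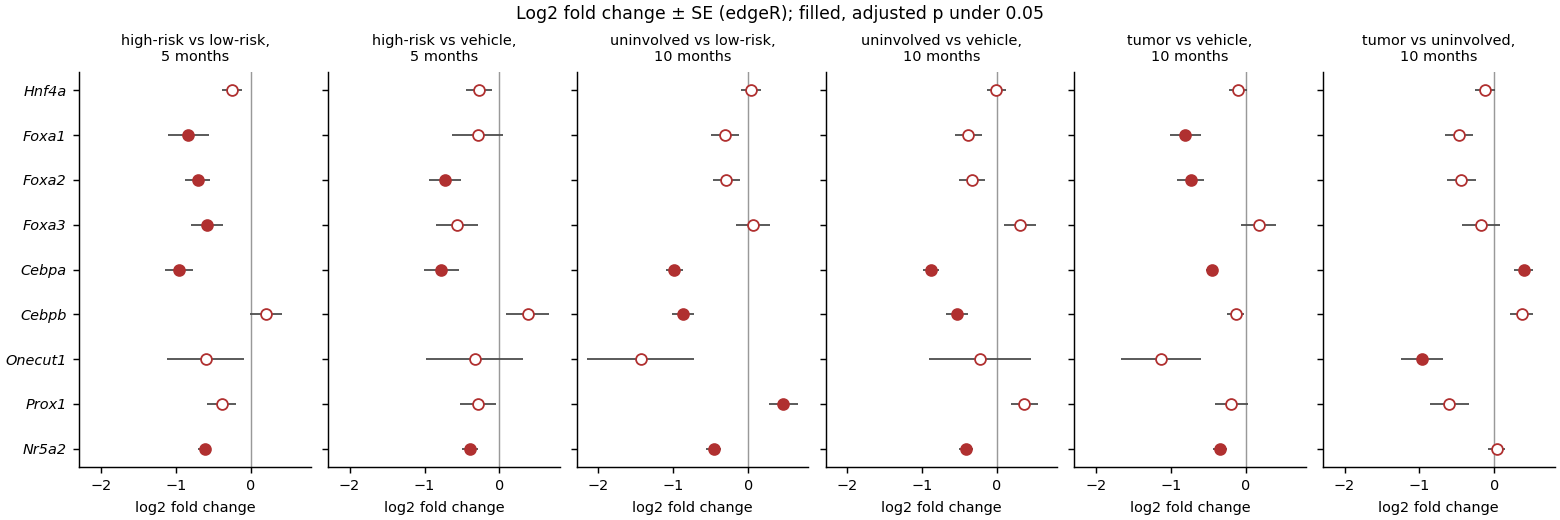
Log2 fold change (point) ± SE (line) of each gene in 6 comparisons from edgeR; filled points have an adjusted p under 0.05. Cebpa is to the left of 0 in every comparison with low-risk or vehicle liver and to the right in tumor against uninvolved liver, and Hnf4a is unfilled throughout.

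At 10 months the liver around tumors was compared with the liver of low-risk mice. Cebpa, Cebpb and Nr5a2 were lower in uninvolved liver and Prox1 was higher, while Hnf4a and the 3 FOXA genes were not called. So 3 of 9 were called lower and 1 higher; of the 16338 genes tested 24.7% were lower and 27.7% higher. Cebpa was 172, 174, 208, 224 and 267 CPM in the 5 uninvolved samples, each below all 5 low-risk livers (380 to 453). Its log2 fold change was -0.98 (SE 0.11, adjusted p = 2.73e-06). Cebpb was 14.4, 17.3, 21.7, 24.2 and 27.1 CPM against 33.6, 34.97, 39.3, 39.4 and 42.6, again with no overlap (log2 fold change -0.87, SE 0.15, adjusted p = 0.000163). Nr5a2 was 61.01, 66.04, 76.9, 78.7 and 86.5 CPM against 89.8, 95.5, 96.7, 102 and 120, also with no overlap (log2 fold change -0.46, SE 0.10, adjusted p = 0.00134). The share of all genes without overlap was not counted, here or in the other comparisons. The uninvolved libraries also stood apart from the low-risk ones, without overlap, in mitochondrial share (4.20% to 5.84% against 2.94% to 3.08%), in genes detected (24676 to 28715 against 21663 to 22578) and in depth (34.8 to 44.6 M against 26.4 to 33.5 M counts). The part of these measures in the result was not tested.

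Prox1 was 115, 132, 142, 162 and 252 CPM in uninvolved liver against 91.5, 94.97, 102, 137 and 149 in low-risk liver, and the groups overlapped. Its call (log2 fold change 0.47, SE 0.19, adjusted p = 0.0488) was lost on leaving out any 1 of 5 samples (low-risk liver 4, 9 or 10, or uninvolved liver 7 or the summed 3 and 6); without uninvolved liver 7, the highest, the log2 fold change was 0.26 (adjusted p = 0.176). Hnf4a was 488, 566, 669, 683 and 754 CPM against 496, 595, 623, 628 and 698 (log2 fold change 0.04, SE 0.14, adjusted p = 0.808). Foxa1 (-0.32, SE 0.19), Foxa2 (-0.29, SE 0.18) and Foxa3 (0.06, SE 0.23) had adjusted p values of 0.163 or more on this log2 scale, and Onecut1, at -1.44, had an SE of 0.71. Leaving out low-risk liver 8 brought Onecut1 past the threshold (-1.73, adjusted p = 0.0406).

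Against the 10-month vehicle livers, which share the uninvolved samples with the comparison above, 3 of 9 were called lower and 0 higher, beside 26.5% of genes lower and 31.2% higher. Vehicle libraries had mitochondrial shares of 3.14% to 3.83% and 21078 to 22006 genes detected, again below all uninvolved libraries. The 3 genes were Cebpa (log2 fold change -0.88, SE 0.10, adjusted p = 3.35e-06), Cebpb (-0.53, SE 0.14, 0.00453) and Nr5a2 (-0.41, SE 0.10, 0.00183). The 6 vehicle livers spanned 365 to 405 CPM for Cebpa, above all uninvolved samples. For Cebpb they spanned 23.9 to 35.97, and for Nr5a2 86.3 to 114, overlapping the uninvolved samples at 1 end. Foxa1 (-0.38, adjusted p = 0.077) and Foxa2 (-0.34, 0.105) were not called, but both were on leaving out vehicle liver 1 or uninvolved liver 7, which gave 5 calls in each case. Of all genes, 8847 of 16327 were called in the first of these fits and 9001 of 16367 in the second. Prox1 (0.37, adjusted p = 0.0949) was called without uninvolved liver 1 (0.49, 0.0386).

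An interaction term asked whether the gap between risk groups at 10 months, with uninvolved liver standing for high risk, departed from that at 5 months. None of the 9 passed (0 of 9; 0.353% of 17572 genes did, and 1958 genes and 2 of the 9 had an unadjusted p under 0.05). For Cebpa the 2 differences were -0.95 and -0.98 and their change -0.02 (SE 0.31, adjusted p = 0.992). Cebpb, 0.20 at 5 months and -0.87 at 10 months, had a change of -1.06 (SE 0.34, unadjusted p = 0.00337, adjusted p = 0.176), and Prox1, -0.39 and 0.47, a change of 0.87 (SE 0.32, unadjusted p = 0.00935, adjusted p = 0.253). The FOXA genes had changes of 0.43 to 0.67 with adjusted p values of 0.531 or more, so a FOXA difference particular to 5 months was not shown.

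Tumors were compared with the uninvolved liver of high-risk mice. Cebpa was higher in tumor and Onecut1 lower; the other 7 were not called. That is 1 of 9 higher and 1 lower, beside 7.55% of 16362 genes higher and 10.5% lower. Tumor libraries had mitochondrial shares of 2.64% to 3.46%, 22609 to 23868 genes detected and 22.5 to 27.9 M counts. Each of these measures lay below that of all uninvolved libraries (4.20% to 5.84%, 24676 to 28715 genes, 34.8 to 44.6 M). The part of these measures in the result was not tested. Cebpa ran from 230 through 289 to 312 CPM in 7 tumors, of which 5 were above every uninvolved sample (log2 fold change 0.39, SE 0.13, adjusted p = 0.0479). Onecut1 ran from 3.56 through 6.32 to 6.41 CPM in tumors and was 4.70, 6.95, 10.9, 12.2 and 18.6 in uninvolved liver (log2 fold change -0.97, SE 0.28, adjusted p = 0.0312). Neither call was firm: leaving out 1 sample at a time ended the Cebpa call for 9 of 12 samples (tumors 1, 6, 7, 11 and 12, and uninvolved livers 1, 5, 7 and the summed 3 and 6), with log2 fold changes between 0.33 and 0.49 over all 12. The Onecut1 call ended without tumor 5, 6 or 12 or uninvolved liver 1, 5 or 7. Without tumor 7, 4 of the 9 genes were called, all of them lower: Foxa1 (-0.60), Foxa2 (-0.58), Prox1 (-0.79) and Onecut1. In that fit 1960 of 16254 genes were called lower and 1529 higher.

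Tumors and uninvolved livers share mouse codes in their titles. With the mouse as a block over 6 shared codes, 2 of 9 were called, beside 1920 of 16404 genes, but other ones. Foxa2 (log2 fold change -0.38, adjusted p = 0.0386) and Prox1 (-0.51, 0.0186) were lower, while Cebpa (0.38, 0.0514) and Onecut1 (-0.69, 0.140) missed the threshold. Over the 4 mice other than 3 and 6, whose uninvolved libraries are near identical, 6 of 9 were called with the block, beside 3037 of 16728 genes. Cebpa (0.48, 0.04) and Cebpb (0.50, 0.0458) were higher, and Foxa1 (-0.51, 0.0349), Foxa2 (-0.40, 0.0468), Onecut1 (-1.17, 0.0214) and Prox1 (-0.56, 0.02) were lower. The directions of the log2 fold changes of these 6 genes were the same in all 3 fits.

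Compared with vehicle liver, tumors had lower Cebpa, Foxa1, Foxa2 and Nr5a2. These were 4 of 9 lower and 0 higher, beside 21% of 15293 genes lower and 24.8% higher. Cebpa showed no overlap, 230 to 312 CPM in tumors against 365 to 405 in vehicle liver (log2 fold change -0.45, SE 0.08, adjusted p = 0.000503). Foxa1 ran from 5.53 through 7.71 to 11.9 CPM against 9.90 through 12.7 to 23.4, with 6 of 7 tumors below every vehicle liver (log2 fold change -0.81, SE 0.21, adjusted p = 0.0057). Foxa2 ran from 13.1 through 16.3 to 27.6 CPM against 20.3 through 28.8 to 41.6, again with 6 of 7 tumors below (log2 fold change -0.73, SE 0.18, adjusted p = 0.00471). Nr5a2 ran from 59.5 through 75.7 to 86.4 against 86.3 through 95.6 to 114 (log2 fold change -0.34, SE 0.09, adjusted p = 0.00525). Foxa3 (log2 fold change 0.17, adjusted p = 0.569), Hnf4a (-0.10, 0.544) and Cebpb (-0.13, 0.364) were not called. These 4 calls held on leaving out each sample in turn, and Onecut1 joined them without vehicle liver 1 (-1.35, adjusted p = 0.036) or 4 (-1.33, 0.0348). Adding the tumor-labelled vehicle library to the vehicles ended the Cebpa call (-0.36, 0.173).

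Age in unexposed mice was examined among the vehicle livers of batch 1. From 3 weeks to 5 months 0 of 9 were called, beside 8.93% of 13927 genes higher and 9.93% lower (4383 genes and 2 of the 9, Prox1 and Nr5a2, had an unadjusted p under 0.05; DESeq2 called both higher). Prox1 had a log2 fold change of 0.47 (SE 0.17, adjusted p = 0.0671) and Nr5a2 of 0.28 (SE 0.11, adjusted p = 0.0817). Prox1 passed without vehicle liver 2 or 3 of 3 weeks or 2 or 6 of 5 months, and Cebpa (0.34, adjusted p = 0.272) passed without the shallow vehicle liver 9 of 5 months (0.45, 0.0314). From 5 to 10 months 1 of 9 was called, Prox1, which was lower (log2 fold change -0.69, SE 0.17, adjusted p = 0.0217), beside 4.05% of 14333 genes higher and 4.08% lower. Prox1 was 94.2, 125 and 158 CPM (lowest, median, highest) in the 6 vehicle livers of 10 months, 5 of them below all 5-month vehicle livers of batch 1, and 107, 132 and 185 at 3 weeks. Lymphatic endothelial markers had a median log2 fold change of -0.90 in the same comparison, with 1 of 4 lower (Lyve1, -1.09, adjusted p = 0.00597), and 1 of 8 stellate markers was lower (Col1a1, -2.02, 0.0168). From 3 weeks to 5 months 2 of 4 lymphatic, 5 of 8 stellate and 7 of 7 sinusoidal markers were lower. The part of these cells in the Prox1 levels was not tested. The Prox1 call was lost without vehicle liver 1 (adjusted p = 0.0519) or 2 (0.058) of 10 months. Without vehicle liver 9 of 5 months Foxa3 was called lower too (-0.86, adjusted p = 0.0165).

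The balance of the C/EBP mRNAs within a sample, taken per kb, differed in level between groups. Cebpb per Cebpa had a median of 0.458 in high-risk liver of 5 months (range 0.197 to 1.46), 0.156 in low-risk liver (0.0984 to 0.853) and 0.214 in vehicle liver (0.076 to 0.479). At 10 months the medians were 0.138 in vehicle, 0.161 in low-risk and 0.178 in uninvolved liver and 0.174 in tumors, within narrower ranges, and at 3 weeks 0.314 in vehicle and 0.273 in TBT liver. The log2 ratio of Cebpa to Hnf4a, taken on CPM without division by length, had medians of -2.001 in high-risk and -0.94 in low-risk liver of 5 months, and of -1.60 in uninvolved liver, -1.05 in tumors and -0.54 in low-risk liver of 10 months. The uninvolved samples, at -1.71 to -1.50, were all below the low-risk livers, at -0.88 to -0.35. Vehicle liver had medians of -1.74 at 3 weeks, -1.26 at 5 months and -0.73 at 10 months, and TBT liver of 3 weeks -1.51. The uninvolved samples lay within the range of 3-week vehicle liver, -2.10 to -1.04, and of 3-week TBT liver, -1.904 to -1.097. They also lay within the ranges of vehicle liver (-1.885 to -0.730) and low-risk liver (-2.351 to -0.349) of 5 months. These ratios are given as a description and were not tested.

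**Figure D4:**
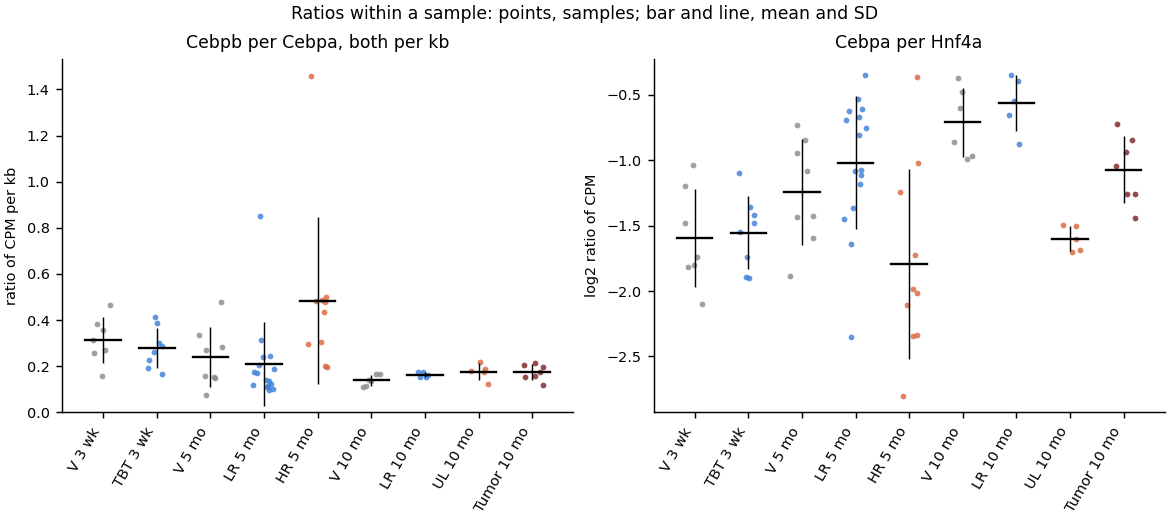
Left, length-scaled Cebpb per Cebpa (linear axis from 0), and right, the log2 ratio of Cebpa to Hnf4a (CPM, not length-scaled), both within a sample, in the 9 groups; points are samples, the horizontal bar is the mean and the vertical line 1 SD either side, stopped at 0 on the left. High-risk livers of 5 months have a median Cebpb per Cebpa of 0.458 against 0.156 in low-risk livers, and a low-lying log2 Cebpa to Hnf4a ratio.

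Other regulators of the network were read from a list of 36 liver-enriched transcription factors and cofactors. In high-risk against low-risk liver of 5 months 5 of 36 were higher and 12 lower, beside 20.3% and 18.5% of all genes, with a list median log2 fold change of -0.13 (all genes -0.01). Nr1h4, the bile acid receptor FXR, was lower (-0.90, SE 0.14, adjusted p = 4.77e-06), and Foxm1, a cell cycle factor rather than a differentiation factor, was higher (3.06, SE 0.46, adjusted p = 3.64e-06). Against vehicle liver 2 were higher and 7 lower (median -0.10), beside 8.47% and 7.38% of all genes, among the lower ones Tbx3, a T-box repressor (-1.48, SE 0.35, adjusted p = 0.00491).

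In uninvolved against low-risk liver of 10 months 13 of 36 were higher and 10 lower, with a median of 0.16, close to the 27.7% higher and 24.7% lower among all genes (median 0.05). Ppara, the fatty acid oxidation receptor, was lower (-0.94, SE 0.11, adjusted p = 3.1e-06). Against vehicle liver 15 were higher and 10 lower (median 0.07), beside 31.2% and 26.5% of all genes, with Ppara again lower, at -0.94 (SE 0.10, adjusted p = 1.3e-06).

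In tumor against uninvolved liver 1 was higher and 6 lower (median -0.30), beside 7.55% and 10.5% of all genes, among them Mlxipl, the carbohydrate response factor ChREBP (-1.23, SE 0.19, adjusted p = 0.00183). In tumor against vehicle liver 4 were higher and 10 lower (median -0.13), beside 24.8% and 21% of all genes, among them Nr1h4 (-1.01, adjusted p = 1.49e-05) and Gata6 (0.72, 3.36e-05). None was called at 3 weeks or in low-risk against vehicle liver at either age. From 3 weeks to 5 months in vehicle liver, 2 rose and 4 fell (median 0.06), beside 8.93% and 9.93% of all genes, including Zhx2 (0.72) and Zbtb20 (0.98), 2 postnatal repressors of fetal liver genes, and from 5 to 10 months 3 rose and 1 fell (median -0.19), beside 4.05% and 4.08%, with Cebpd at -1.29 and Nr3c1, the glucocorticoid receptor, at 0.36. The interaction test between ages was passed by 2 of the 36, beside 0.353% of all genes, Mlxipl among them (change 1.71, SE 0.38, adjusted p = 0.0338).

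**Figure D5:**
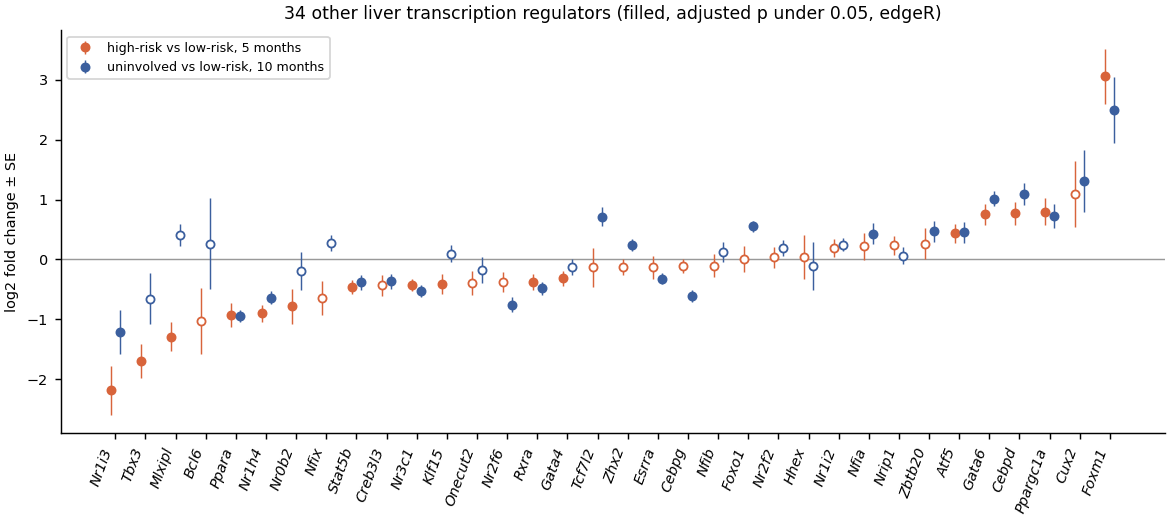
Log2 fold change ± SE of 34 of the 36 other liver transcription regulators in high-risk against low-risk liver of 5 months and in uninvolved against low-risk liver of 10 months, ordered by the first; filled points have an adjusted p under 0.05 (edgeR). Foxm1 lies at the right end, at 3.06 in the first comparison, and 11 of the plotted genes are filled below 0 in it against 10 in the second.

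The secreted and metabolic genes that these factors are known to drive were read from a list of 45. Like the other lists, it was chosen with earlier results of these data known. It shares Alb, Apoa1, Ttr and Tat with the defining hepatocyte markers, so the lists are not independent. In high-risk against low-risk liver of 5 months 32 of 45 were lower and 2 higher, beside 18.5% and 20.3% of all genes, with a median log2 fold change of -0.66 (all genes -0.01). Cyp27a1, a bile acid synthesis enzyme (-1.41, SE 0.16, adjusted p = 9.42e-08), and Lipc, hepatic lipase (-1.23, SE 0.15, adjusted p = 1.67e-07), had the smallest adjusted p. Against vehicle liver 30 were lower and 1 higher (median -0.63), beside 7.38% and 8.47% of all genes, led by the same genes (-1.26 and -1.13). At 10 months 29 were lower and 2 higher in uninvolved against low-risk liver (median -0.47), beside 24.7% and 27.7% of all genes. Against vehicle liver 32 were lower and 1 higher (median -0.56), beside 26.5% and 31.2%. There Slc10a1, the bile acid importer NTCP, was at -1.29 and -1.37, and Cyp27a1 at -0.94 and -1.03. Tumors had 33 lower and 1 higher against vehicle liver (median -0.50), beside 21% and 24.8% of all genes, among them Apoa2 (-0.85) and Cyp27a1 (-1.10). Against uninvolved liver 1 was higher, the urea cycle gene Otc (0.43), and 1 lower, Apoa1 (-0.55), with a median of -0.04, beside 7.55% and 10.5% of all genes.

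None of the 45 was called at 3 weeks or in low-risk against vehicle liver. With age in vehicle liver 5 were higher and 3 lower from 3 weeks to 5 months, beside 8.93% and 9.93% of all genes (median -0.09). Among them were Ugt2b1 at 1.07 and Alb at -0.81. From 5 to 10 months 1 was higher and 1 lower, beside 4.05% and 4.08% of all genes (median 0.10). The lower one was Fgb, a fibrinogen chain, at -1.10. None passed the interaction test in edgeR (median change 0.18), beside 0.353% of all genes.

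Many markers of other liver cells differed between the same groups. The counts below stand beside 20.3% of all genes higher and 18.5% lower in high-risk against low-risk liver of 5 months. In uninvolved against low-risk liver of 10 months the shares were 27.7% and 24.7%. Cholangiocyte markers (8 genes, Krt19, Krt7, Epcam and Sox9 among them) summed to 33.8 to 355 CPM (median 286) in high-risk against 28.2 to 274 (median 47.5) in low-risk liver of 5 months, and 4 of the 7 tested were higher. At 10 months they summed to 107 to 215 in uninvolved liver and 148 to 771 in tumors against 37.7 to 60.4 in low-risk and 38.8 to 54.7 in vehicle liver. Stellate and fibroblast markers were higher for 6 of 8 and lower for 1 in high-risk against low-risk liver at 5 months (sums of 553 to 1543 against 328 to 677 CPM) and likewise in uninvolved against low-risk liver at 10 months (629 to 853 against 392 to 559). Lymphatic endothelial markers were higher for 3 of 4 tested in both comparisons, lymphocyte markers for 3 of 6 and 4 of 7. Sinusoidal endothelial markers were lower for 5 of 7 at 5 months, and lower for 3 and higher for 1 of 7 at 10 months. In tumors against vehicle liver 7 of 7 cholangiocyte markers were higher. Of 8 stellate markers 5 were higher and 1 lower, and of 7 sinusoidal markers 1 was higher and 5 lower. Among all genes 24.8% were higher and 21% lower there.

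Kupffer cell markers were split, 3 higher and 2 lower of 8 at 5 months and 2 higher and 5 lower at 10 months. All counts here stand beside the shares of all genes given above for the same 2 comparisons. Of the 5 erythroid markers 1 was lower in each, and none of the 6 pancreatic acinar markers passed the filter in either. The 8 defining hepatocyte markers summed to a median of 94140 CPM in high-risk and 110200 in low-risk liver at 5 months, and to 85610 in uninvolved and 104900 in low-risk liver at 10 months; 4 were lower and 2 higher in each. The part of these cell types in the differences of the 9 genes was not tested.

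For each gene the 2 other protein-coding genes with the most similar pattern were found by Pearson correlation of log2 CPM over the 9 group means, among 9543 genes averaging 5 CPM or more. Each r rests on 9 points only, and all genes share the same libraries and scaling. For Cebpa they were Ggnbp2 (r = 0.992) and Pex6 (0.991), for Nr5a2 Nrp1 (0.991) and Sirt1 (0.986), and for Foxa2 Clec4g (0.988), itself a sinusoidal endothelial marker of the list above, and Map3k11 (0.980). For Hnf4a they were Ythdf1 (0.977) and Rpl28 (0.968), for Foxa1 Dennd5b (0.984) and Epb41l4b (0.967), and for Foxa3 Eif4ebp2 (0.898) and 0610030E20Rik (0.896). Cebpb was followed by Cystm1 (0.945) and Zfp131 (0.929), Onecut1 by Klf9 (0.950) and Errfi1 (0.879), and Prox1 by Ncoa2 (0.966) and Exosc1 (0.945).

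Other annotated genes overlapping the 9 were at low levels. Prox1os, antisense to Prox1 over 133 bases of exon, had a median of 2.69 CPM, Gm45091, antisense to Cebpa over 51 bases, 0.995 CPM, and Gm20649, on the strand of Onecut1 with 2171 shared bases, was at 0 CPM in the median sample. Hnf4aos (2.17 CPM), Gm25881 and Gm28172 lie within Hnf4a or Prox1 but share none of their exons.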

How the data were processed

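Per the labels' protocols, liver RNA (RNeasy columns with a DNase step) went into TruSeq Stranded Total RNA libraries. The submitters' processing notes name Trim Galore, HISAT2, featureCounts and mm10, without versions. The authors deposited gene counts as whole numbers; the name of the deposited table says that they were adjusted for batch with ComBat-seq, which changes counts of both batches, so counting noise is no longer that of raw reads. The annotation and strand setting are not given in the sources used here; 55450 of the 55536 gene IDs are in GENCODE M21, used for positions and exon lengths. Sequences are from RefSeq (GRCm38.p6).

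Counts were tested with edgeR 4.0.16 (R 4.3.3; TMM, filterByExpr, robust quasi-likelihood fit, Benjamini-Hochberg over all genes, 0.05), with all groups of an age except tumors in 1 fit. The 5-month fit had sequencing batch as a covariate. Tumors entered only the fits of their own 2 comparisons. The SE is the log2 fold change divided by the square root of F. CPM came from edgeR. The test was checked on simulated data with high-risk against low-risk group sizes at 5 months, over 14773 genes. Of 62 genes changed by 0.6 (log2) 24 were recovered, and of 72 changed by 1, 55, with 8 false calls. Far fewer genes were changed there than were called in the real comparison, and no batch difference was simulated, so these rates need not hold here. Alternatives were DESeq2 1.42.0, RLE factors, no filter, other sample sets, a replicate block and, outside 3 weeks and the low-risk comparisons of 5 months, leaving out each sample. The 9 genes and the 2 pathway and 9 marker lists were chosen with earlier results of these data known. Named were all 9 genes, overlapping genes, up to 2 called genes of each pathway list with the smallest adjusted p, and the 2 nearest patterns; some genes of the lists are counted but not reported here by name. Shared mouse codes pair tumor and uninvolved liver; same-code deviations correlated between -0.292 and 0.71 over 6 pairs.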

Additional observations from a re-analysis of the deposited data

Results flagged for a closer look

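For each gene, the highest and lowest sample of each group of 4 to 10 samples was compared with its neighbour by Dixon's test. Of 72 such groups 8 had a sample set apart, where chance gives about 5%. High-risk liver 15 of 5 months accounted for 4 of them: Foxa1 at 22.8 CPM (next 9.68), Cebpb at 80.9 (next 46.0), Onecut1 at 41.9 (next 19.4) and Prox1 at 311 (next 168). This library had 14.5% mitochondrial counts. Tumor 7 was set apart for Foxa2 at 27.6 CPM (next 18.7) and Foxa3 at 109.7 (next 63.4). Vehicle liver 5 was set apart at 5 months for Foxa3 at 167 CPM (next 85.5), and vehicle liver 5 of 10 months for Onecut1 at 36.7 (next 12.9).

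The vehicle library labelled as a tumor, which no comparison uses, was above all 6 vehicle livers of 10 months for Cebpb, at 65.0 CPM against 23.9 to 35.97, and for Prox1, at 262 CPM against 94.2 to 158. It too had a high mitochondrial share, 14.1%. The part of these shares in the levels was not tested.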

How the results depend on the processing

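Of 108 gene and comparison pairs, 69 were called under no setting. For the other 39, 594 of 697 alternative values kept direction and side of the threshold, 58 lost and 42 gained a call, and 3 changed sign, none of them called: Cebpa (0.083) and Foxa3 (0.469) in high-risk against vehicle liver with a replicate block over 3 shared numbers, and Prox1 (0.071) in high-risk against low-risk liver in batch 1 alone. That block left 0 of 3 calls. Other counts that moved follow. High-risk against low-risk liver had 0 calls in batch 1 alone (main 5); high-risk against vehicle liver (main 3) had 0 without a filter, in batch 1 alone and with only the 2 groups. Tumor against uninvolved liver (main 2) had 1 without a filter, 1 with uninvolved libraries 3 and 6 separate and 6 with the block over 4 mice; tumor against vehicle liver (main 4) had 1 with a replicate block. Vehicle liver at 5 months against 3 weeks (main 0) had 2 with DESeq2, 2 with all 3 ages in 1 fit (chosen after seeing the data) and 3 without deviating libraries. At 10 against 5 months (main 1) it had 0 without a filter, 0 with the tumor-labelled vehicle included, 2 without deviating libraries and 3 with the block. Those 3 were Foxa3, Cebpb and Hnf4a (-0.47, adjusted p = 0.0447, its only call), while Prox1 lost its call (-0.56, 0.06). The block changed no other count beyond 1.5 times.

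Leaving out 1 sample gave 1 to 4 calls for high-risk against vehicle, 3 to 5 for uninvolved against low-risk and against vehicle, 0 to 4 for tumor against uninvolved, 4 to 5 for tumor against vehicle, 0 to 1 for 5 months against 3 weeks and 0 to 2 for 10 against 5 months. Outside tumor and uninvolved liver the numbers pair nothing in the labels; same-number deviations correlated between -0.253 and 0.456, and in no comparison did every sample correlate best with its own number. The cause of these shifts was not tested.

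Counts over all genes moved over 1.5 times where batch 1 alone was used (773 against 5745 for high-risk against low-risk, 0 against 2341 for high-risk against vehicle). The latter was 1211 without a filter, 1338 with only 2 groups and 65 with the block, 1373 without vehicle liver 8 and 4264 without 9. Tumor against uninvolved liver (2961) had 5346 with all 10-month groups, 1920 with the block and 1580, 1590 and 1611 without uninvolved liver 1, 5 or 7. Tumor against vehicle (7016) had 3972 with the block and, with the tumor-labelled vehicle included, 4206; uninvolved against vehicle (9427) then had 6019. Among the age comparisons, 5 months against 3 weeks (2627) had 1426 without a filter, 4801 without deviating libraries and 4763 without vehicle liver 9 of 5 months alone, and 10 against 5 months (1165) ranged from 156 with the tumor-labelled vehicle to 3362 without that liver 9. The interaction (62) had 96 with RLE factors and 204 without deviating libraries. Where the main fit called no gene, DESeq2 called 2 at 3 weeks, 52 in low-risk against vehicle liver at 5 months and 1 at 10 months. With edgeR, 3 genes were called at 3 weeks without a filter. In low-risk against vehicle liver at 5 months edgeR called 20 without the batch covariate and 1 without deviating libraries.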

Other observations

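In the same vehicle library labelled as a tumor, Cebpa was 126 CPM, below the 6 vehicle livers of 10 months (365 to 405) and also below the 7 tumors of TBT mice (230 to 312). Foxa2 (11.7 CPM) and Foxa3 (32.0 CPM) were likewise below both groups, Hnf4a (484 CPM) and Nr5a2 (78.9 CPM) were below the vehicle livers but within the tumors, and Foxa1 (18.8 CPM) and Onecut1 (16.96 CPM) were within the vehicle livers. A single library has no replicate, so these values are given without a test.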
